A study of Mus musculus with 4 samples.

Results

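Chemokines are small secreted proteins that direct the migration of leukocytes, and they act on G protein-coupled receptors named after the ligand classes. CC and CXC ligands differ in the spacing of their first cysteines, XC and CX3C ligands are small separate classes, and the atypical receptors (Ackr genes) bind chemokines without G protein signalling and clear or buffer them. In brain tumors, this system is known for the recruitment of monocytes, neutrophils and lymphocytes and for the Cxcl12, Cxcr4 and Ackr3 axis of tumor, vascular and progenitor cells. The genes described here were the 58 of 21951 protein-coding genes of GENCODE M21 whose symbol is Ccl, Cxcl, Ccr or Cxcr with a number, or Xcl1, Xcr1, Cx3cl1 or Ackr1 to Ackr4. They comprised 23 CC ligands, 12 CXC ligands, 2 ligands of the XC and CX3C classes, 17 receptors and 4 atypical receptors.

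Open chromatin was mapped by ATAC-seq, which uses a transposase to tag accessible DNA with adapters, in tumors that grew after intracranial injection of mG7080, a murine glioblastoma line. Hosts were C57BL/6 mice that were wild type (WT) or lacked Esm1 (KO), the gene of the endothelial proteoglycan Endocan, with 2 tumors per group. The line came from genetically engineered mouse tumors whose deletions, p53 and Nf1 among them, were shared by the tumor cells of both groups, and only the host carried the Esm1 knockout. All hosts were female according to the study's methods. The labels name tumor tissue as the source, whereas the methods name freshly isolated tumor cells and the results name cells that had been propagated from the tumors. Each tumor gave 1 list of peaks, and runs of 4 values give the WT tumors 1 and 2 first, followed by the KO tumors 1 and 2. The height of a peak is the number of read ends piled up at its summit, and the relative height divides it by the genome background of the same library.

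The lists held 63000 to 100088 peaks, and the genome background ranged from 4.41 read ends in WT replicate 1 to 6.85 in WT replicate 2. WT replicate 1 was therefore the shallowest library, and the lowest height that was called as a peak ran from 13 to 16 read ends. The absence of a peak means that no height was available for that library, not that the site was closed. Esm1 itself had 0 peaks in each library, which left the genotype labels without a check. Glioma and oligodendrocyte precursor markers had promoter peaks at 6 to 7 of 8 genes in each library. Microglia and macrophage markers had 0, 2, 2 and 2 of 10, with no peak in any library at Ptprc, Csf1r, Itgam, Adgre1, P2ry12, C1qa and Fcgr3. Markers of T and NK cells (6 genes), neutrophils (5 genes) and B cells (3 genes) had 0 promoter peaks. Endothelial markers had 1, 2, 1 and 1 of 6, fibroblast and mural markers 2, 3, 2 and 2 of 4, and neuronal markers 3 of 3 in every library. In bulk samples, fewer cells of a type and a weaker signal per cell cannot be told apart.

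Most chemokine and receptor promoters carried no peak. A promoter was taken as 1000 bp on either side of any annotated transcription start. Of the 58 genes, 9 (15.5%) had a promoter peak in all 4 libraries, against 60.6% of all protein-coding genes, and 38 (65.5%) had none in any library, against 32.8% of all genes. The remaining 11 had a peak in 1 to 3 libraries that did not divide them by genotype, against 1342 of all 21951 genes. The number of genes with a promoter peak was 12, 17, 18 and 14, or 20.7%, 29.3%, 31.0% and 24.1%, where all genes had 62.1%, 64.3%, 63.2% and 65.2%. The mean share was 25.0% ± 6.1 (SD, n = 2) for the WT tumors, compared with 27.6% ± 4.88 (SD, n = 2) for the KO tumors, a difference of 2.59 percentage points (exact permutation test, two-sided, p = 0.667, where 2 tumors against 2 allow no p below 0.333). No gene was WT-only, with a peak in each WT library but in no KO library, and none was KO-only, the reverse, whereas 0.132% and 0.296% of all genes were. The direction of the share difference turned without WT replicate 1 or without KO replicate 1.

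**Figure D1:**
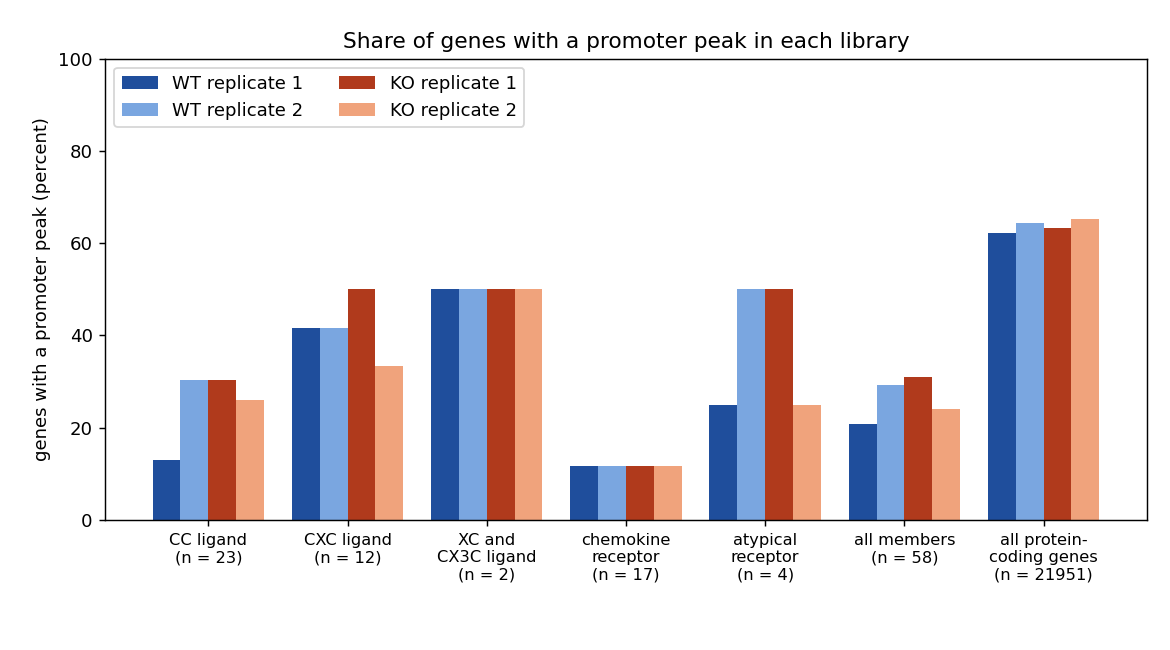
Share of genes with a promoter peak (percent, vertical axis) by class of chemokine gene and for all protein-coding genes (horizontal axis, with the number of genes), 1 bar per library. Chemokine receptors stood at 11.8% in every library, CC ligands at 13% to 30.4%, and all genes at 62.1% to 65.2%.

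The number of promoters with a peak is given by class. Among the receptors, 2 of 17 had one, in all 4 libraries each, and the other 15 had none in any library. Among the CC ligands, 9 of 23 had a promoter peak in at least 1 library and 3 in all 4, and among the CXC ligands the numbers were 6 of 12 and 2. Of the XC and CX3C ligands, Cx3cl1 had a peak in every library and Xcl1 in none. Of the atypical receptors, Ackr3 had one in all 4 libraries, Ackr4 in 2, and Ackr1 and Ackr2 in none. The classes are small, and the differences between classes were not tested.

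Cxcl12 is the ligand that retains and attracts progenitors, lymphocytes and glioma cells, Cxcr4 is its signalling receptor and Ackr3 its scavenger. All 3 promoters had a peak in every library. When lists were cut at a −log10 q of 5 or were made equally long, Cxcl12 no longer had a peak in every library. At Cxcl12 (ENSMUSG00000061353.11, chromosome 6, 117168535 to 117181367) the tallest promoter peak held 24, 27, 23 and 34 read ends, a relative height of 5.44, 3.94, 3.82 and 5.07. It was the lowest promoter among the 9, at percentile 1.98 of all promoters with a peak in every library, and its summit varied in place, at positions 217, -434, -517 and 22 relative to the nearest start. At Cxcr4 (ENSMUSG00000045382.6, chromosome 1, 128588199 to 128592293) the peak held 37, 45, 44 and 58 read ends, with the highest value in KO replicate 2. Its summit lay upstream of the start in all 4 libraries, at positions -829, -826, -826 and -903. At Ackr3 (ENSMUSG00000044337.5, chromosome 1, 90203980 to 90216751) the heights were 38, 47, 39 and 41 read ends, with the summit 51 to 91 bp inside the gene. In limma on log2 height, centred on the median of each library, the difference between KO and WT was 0.03 (SE 0.30) at Cxcl12, 0.20 (SE 0.21) at Cxcr4 and -0.18 (SE 0.23) at Ackr3, each with adjusted p = 0.998 over 13310 promoters.

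The Cxcr4 window is shown because it is the receptor promoter peak that lay over no promoter of another gene. It spans chr1:128593017-128593216 (GRCm38.p6, minus strand, in the direction of the gene, 200 bases around the median summit), and capitals mark its 9 CpG dinucleotides.
Cxcr4 upstream peak: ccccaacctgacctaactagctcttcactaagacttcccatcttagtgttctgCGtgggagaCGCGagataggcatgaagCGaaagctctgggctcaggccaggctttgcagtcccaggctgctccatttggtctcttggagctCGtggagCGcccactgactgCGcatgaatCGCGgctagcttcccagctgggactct

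The CXC ligands Cxcl1, Cxcl2, Cxcl3 and Cxcl5 attract neutrophils through Cxcr2, and their genes lie together on chromosome 5. Their promoters did not share one state. Cxcl5 (ENSMUSG00000029371.7, 90759360 to 90761624) had a peak in all 4 libraries, with 27, 29, 25 and 29 read ends and a relative height of 6.12, 4.23, 4.15 and 4.32. Cxcl3 (ENSMUSG00000029379.10, 90786103 to 90789600) had 19, 24 and 19 read ends and no peak in KO replicate 2. Cxcl1 (ENSMUSG00000029380.11, 90891241 to 90893115) had 20, 24 and 30 read ends, and the library without a peak was WT replicate 2, the deepest. Cxcl2 (ENSMUSG00000058427.10, 90903871 to 90905938) and Cxcl15, a lung chemokine, had no promoter peak. The heights at Cxcl1 and Cxcl3 lay above the lowest that was called and below the median peak height of their libraries. That median was 26, 34, 31 and 33 read ends in the 4 libraries. The receptors of these ligands, Cxcr1 and Cxcr2, had no promoter peak in any library.

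The upstream sequences of Cxcl1, Cxcl2 and Cxcl3 are shown because they carry the same stretch around a match to the NF-kB motif while their peaks differ, and that of Cxcl10 because it holds several motifs of inflammatory factors. They are the 250 bases before the RefSeq transcription start (GRCm38.p6), at chr5:90890995-90891244, chr5:90903649-90903898 and chr5:90785851-90786100 on the plus strand and chr5:92348890-92349139 on the minus strand. Capitals mark matches to the NF-kB motif and, as the first capitals of Cxcl10, to the interferon-stimulated response element (ISRE).
Cxcl1 promoter: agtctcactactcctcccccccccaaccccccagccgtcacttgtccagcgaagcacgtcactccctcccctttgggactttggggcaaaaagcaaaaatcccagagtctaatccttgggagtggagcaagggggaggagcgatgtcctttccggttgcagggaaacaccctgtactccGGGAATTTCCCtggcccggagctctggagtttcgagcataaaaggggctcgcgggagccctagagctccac
Cxcl2 promoter: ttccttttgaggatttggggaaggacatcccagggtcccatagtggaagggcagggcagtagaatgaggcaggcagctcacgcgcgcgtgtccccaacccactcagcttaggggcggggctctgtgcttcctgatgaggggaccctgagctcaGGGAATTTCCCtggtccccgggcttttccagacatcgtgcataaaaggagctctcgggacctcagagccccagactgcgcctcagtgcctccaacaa
Cxcl3 promoter: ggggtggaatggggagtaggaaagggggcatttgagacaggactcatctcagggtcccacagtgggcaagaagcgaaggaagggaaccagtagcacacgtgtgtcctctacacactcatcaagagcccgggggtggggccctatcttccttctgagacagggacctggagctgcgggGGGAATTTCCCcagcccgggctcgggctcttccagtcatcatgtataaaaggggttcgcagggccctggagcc
Cxcl10 promoter: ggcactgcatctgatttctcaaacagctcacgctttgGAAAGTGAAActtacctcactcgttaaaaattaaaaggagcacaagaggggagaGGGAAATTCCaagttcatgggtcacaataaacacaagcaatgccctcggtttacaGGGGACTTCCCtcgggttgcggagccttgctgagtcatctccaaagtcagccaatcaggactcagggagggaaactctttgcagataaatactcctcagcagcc

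The capitals of Cxcl1, Cxcl2 and Cxcl3 read GGGAATTTCCC in all 3 promoters, made of 2 overlapping NF-kB matches, 1 on each strand. They began at positions -71, -97 and -73 from the RefSeq start. The printed sequence of Cxcl2 ends at 90903898, inside the GENCODE gene that begins at 90903871, so its position depends on the start used. The same 11 bases were found in 14 of 32851 RefSeq promoters of 300 bases (0.0426%), and an NF-kB match of any kind in 8.46%. At Cxcl10 the NF-kB matches began at positions -159 and -104, and the last run of capitals holds 2 overlapping matches. The ISRE match began at position -213, and 3.44% of all RefSeq promoters hold one. A match to the AP-1 motif TGANTCA, left in lower case, began at position -74, and 7.81% of promoters hold one. The search covered both strands and also the hypoxia response core ACGTG and the TATA box TATAAA, which were found in 19.6% and 13.6% of promoters. A match describes letters and not binding. RefSeq entries were matched for 44 of the 58 genes, fewer than 80%, so no share of motif matches over the chemokine genes is given for promoters. Those without an entry included Ccl2, Ccl4, Ccl5, Ccl7, Ccl11, Ccl24, Ccl26, Ccr7, Ccr10, Cxcl5, Cxcl16, Cxcl17 and Cxcr5.

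Cxcl9 and Cxcl10 are interferon-induced ligands of Cxcr3 that attract activated T cells. Cxcl10 (ENSMUSG00000034855.13, chromosome 5, 92346638 to 92348889) had no promoter peak in WT replicate 1 and 21, 25 and 36 read ends in the others, a relative height of 3.07, 4.15 and 5.36. KO replicate 2 was the highest. When lists were cut at a −log10 q of 5 or were made equally long, this promoter had a peak in both KO libraries and in no WT library. Under the cut Cxcl3 had the reverse call, with a peak in both WT libraries only, and so had Cxcl14 in equally long lists. The share of all genes with such calls under these settings was not computed. Cxcl9 had no promoter peak and no distal region within 20 kb, where regions over promoters of other genes were not counted, and Cxcr3 had none at its promoter. Cxcl14 (ENSMUSG00000021508.11, chromosome 13, 56288643 to 56296551), a ligand made by epithelia and brain cells, had 18, 33 and 17 read ends and no peak in KO replicate 2. Cxcl13, which attracts B cells through Cxcr5, and its receptor had no promoter peak, and neither did Cxcl16, Cxcr6 or Cxcl17.

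**Figure D2:**
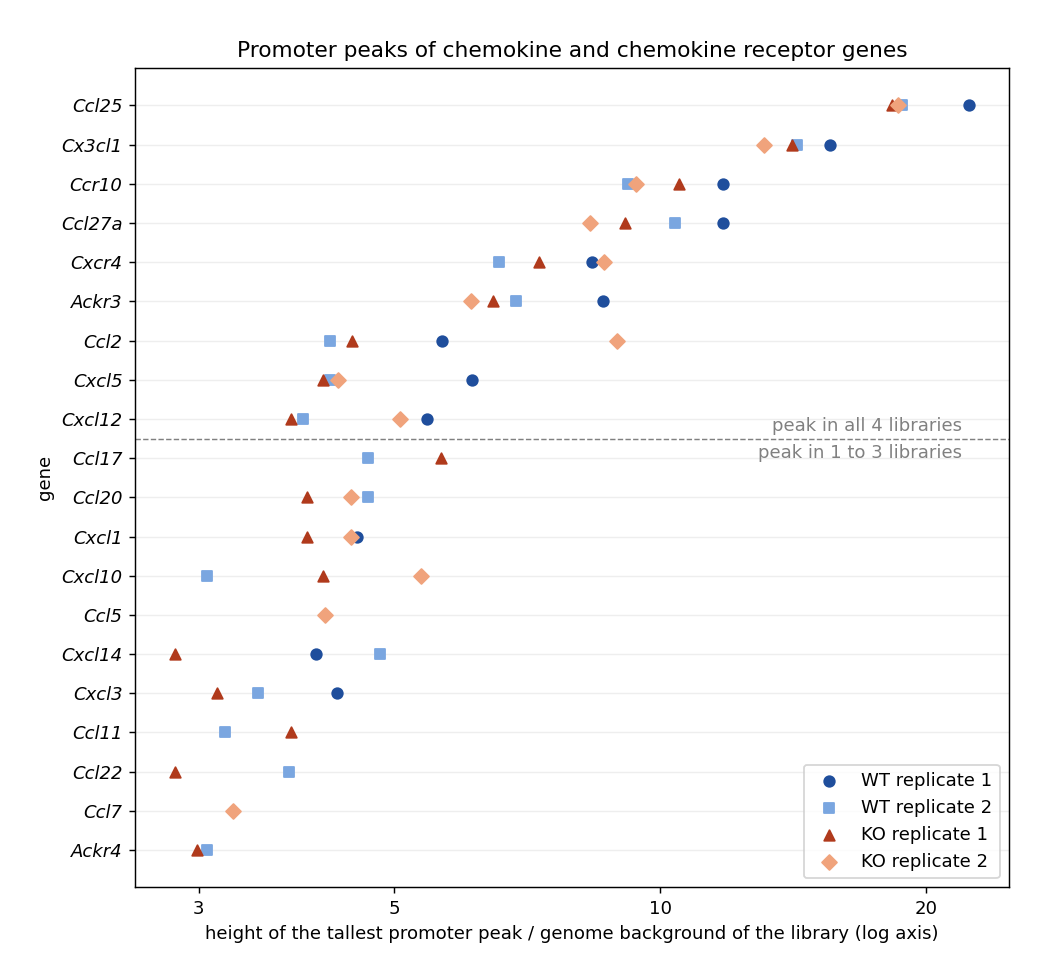
Relative height of the tallest promoter peak (height over the genome background of the library, log axis) for the 20 genes with a promoter peak in any library (vertical axis), 1 symbol per library and none where the list had no peak. Ccl25 stood highest at 18.3 to 22.4, and at Ccl2 KO replicate 2 lay at 8.94 where the other libraries lay at 4.23 to 5.66.

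Ccl2 is the main monocyte attractant and acts on Ccr2. Its promoter (ENSMUSG00000035385.5, chromosome 11, 82035571 to 82037453) had a peak in all 4 libraries, with 25, 29, 27 and 60 read ends and a relative height of 5.66, 4.23, 4.48 and 8.94. KO replicate 2 was high and KO replicate 1 lay between the WT libraries on both scales. On the log2 scale of relative height, the height of KO replicate 2 exceeded the mean of the others by 0.91, at percentile 99.3 of the same excess over 13310 promoters. The limma difference between KO and WT was 0.48 (SE 0.31, 95% interval -0.17 to 1.13, adjusted p = 0.998). It was 0.01 without KO replicate 2 and 0.95 without KO replicate 1, so the value rests on KO replicate 2. Either of these leaves 1 KO library, which has no spread of its own. The interval and p-value of the full comparison reach no further than these tumors. The SE behind them was moderated by limma toward a trend over all promoters, so it does not measure the spread at Ccl2 alone.

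KO replicate 2 also held the only promoter peaks of 2 further inflammatory ligands on chromosome 11. Ccl7 (ENSMUSG00000035373.2, chromosome 11, 82045712 to 82047525), a further monocyte attractant, had 22 read ends there, and a region 2.38 kb upstream of the Ccl2 start, in an intron of Gm17268, had 25 read ends, again in KO replicate 2 alone. Ccl5 (ENSMUSG00000035042.2, chromosome 11, 83525778 to 83530518), which attracts T cells and monocytes, had 28 read ends in this library, with the summit 1199 bp inside the gene. With promoters of 2500 bp, Ccl5 had a promoter peak in all 4 libraries. The Ccl7 promoter had no peak in any library when lists were cut at a −log10 q of 5 or were made equally long. Promoters with a peak in KO replicate 2 alone made up 2 of the 58 genes and 1.74% of all genes. The eosinophil attractant Ccl11 (ENSMUSG00000020676.2, chromosome 11, 82057823 to 82062955), the next gene of the Ccl2 cluster, had 22 and 23 read ends in WT replicate 2 and KO replicate 1 and none in the other libraries. The macrophage and monocyte ligands Ccl3, Ccl4, Ccl6, Ccl8, Ccl9 and Ccl12 had no promoter peak, nor had the receptors Ccr1, Ccr2 and Ccr3. KO replicate 2 had 1 microglial promoter that the others lacked, Tmem119 with 28 read ends, while Cd68 had a peak in WT replicate 2 and KO replicate 1 only. The summed relative height of the 10 microglial and macrophage markers was 0, 14.5, 12.9 and 9.98. Among the glioma and oligodendrocyte precursor markers, KO replicate 2 had the most read ends at 5 of the 6 promoters with a peak in every library, and the greatest relative height at 4. Olig2, a transcription factor of the oligodendrocyte lineage, had 31, 23, 26 and 71 read ends, and Sox2, a stem cell factor, had 41, 49, 50 and 83. The summed relative height of that list was 61.6, 39.3, 42.3 and 65.1, so WT replicate 1 was also high. The part of other cells, or of these differences among the libraries, in the signal at Ccl2, Ccl5 and Ccl7 was not tested.

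**Figure D3:**
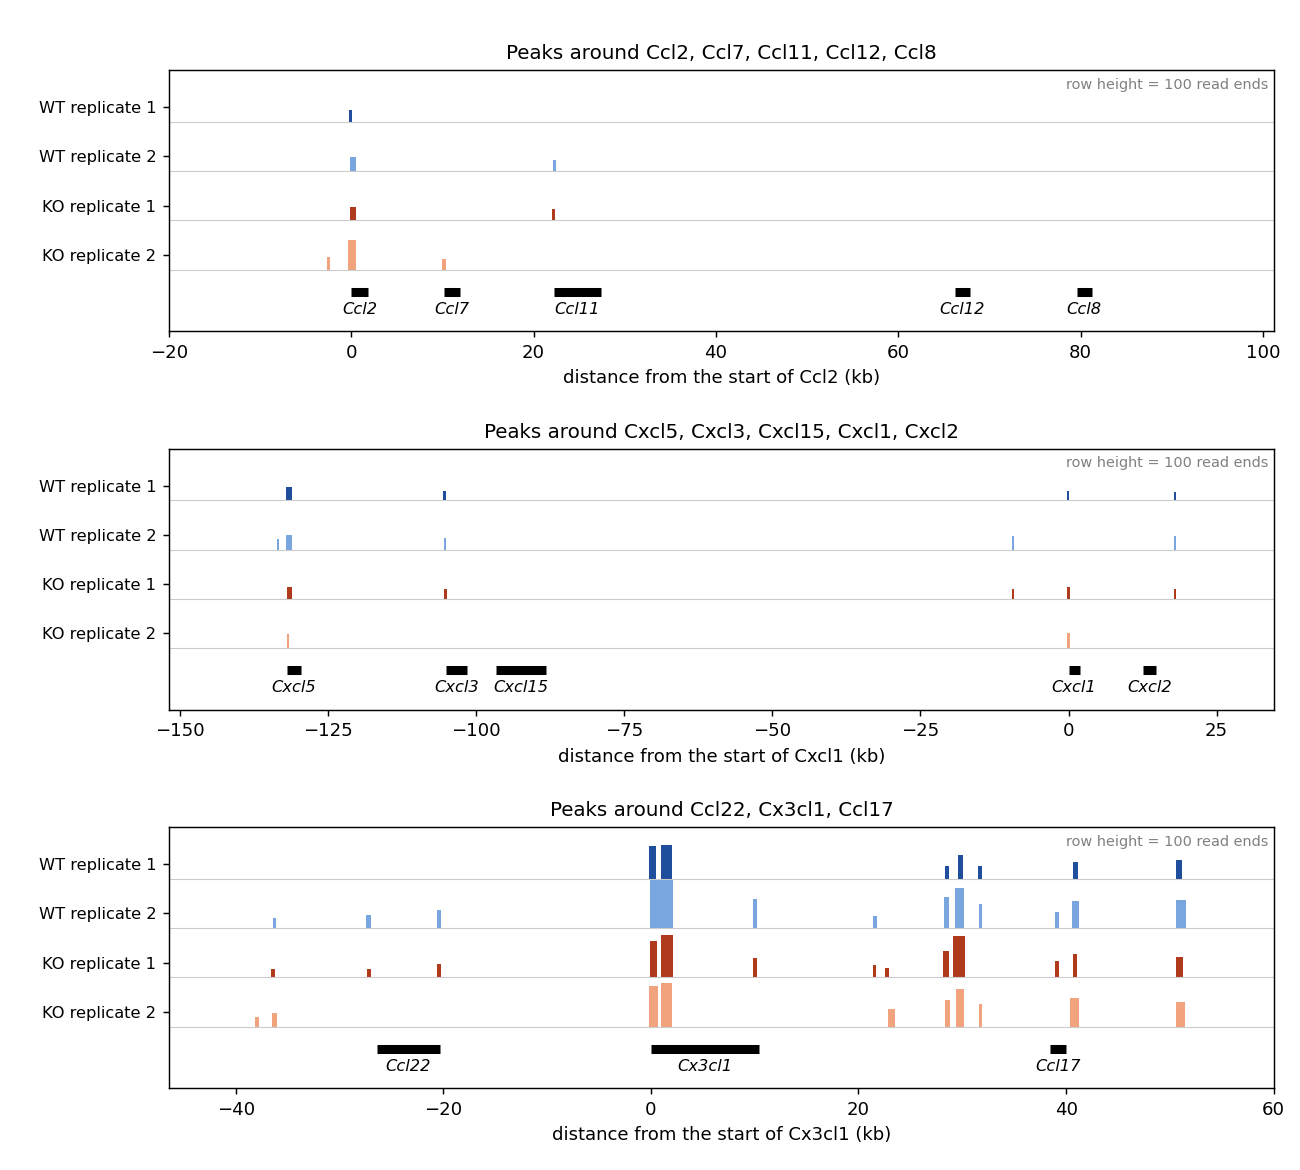
Peaks of each library (rows, bar height in read ends on a linear scale, bar width the length of the peak but at least 0.35 kb) around 3 gene clusters against the distance from the start of Ccl2, Cxcl1 or Cx3cl1 (horizontal axis, kb), with chemokine genes as black bars and other genes not drawn. The Ccl2 peak of KO replicate 2 held 60 read ends against 25 to 29 in the others, and the Cx3cl1 cluster held 14 regions against 4 in the Ccl2 cluster.

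Cx3cl1, the membrane-bound ligand that neurons make, lies on chromosome 8 between Ccl22 and Ccl17, which attract regulatory and helper T cells through Ccr4. The Cx3cl1 promoter (ENSMUSG00000031778.13, 94772009 to 94782427) had a peak in all 4 libraries with 69, 98, 85 and 88 read ends, a relative height of 15.6, 14.3, 14.1 and 13.1. In WT replicate 2 a single peak covered the start and the first intron, and in the others the tallest of 2 peaks had its summit 1557 to 1617 bp downstream. The local background there was 3.54 to 4.35 times the genome background. Ccl22 (ENSMUSG00000031779.3, 94745590 to 94751699) had 26 and 17 read ends in WT replicate 2 and KO replicate 1 and no promoter peak in the other libraries. Ccl17 (ENSMUSG00000031780.2, 94810453 to 94812036) had 32 and 34 read ends in the same libraries, with the fold over local background as low as 2.19 and 2.41. Both calls were lost at promoters of 500 bp and in lists of equal length, and at 2500 bp Ccl17 had a peak in every library.

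Among the homeostatic CC ligands, 2 promoters had a peak in every library. Ccl25, which guides T cells to thymus and gut through Ccr9, had the tallest peak of all chemokine genes (ENSMUSG00000023235.14, chromosome 8, 4325210 to 4360020), with 99, 129, 110 and 125 read ends and a relative height of 22.4, 18.8, 18.3 and 18.6. That peak also lay over the promoter of Elavl1, an RNA-binding protein gene, so its height cannot be assigned to Ccl25. Ccl27a, a skin ligand of Ccr10 (ENSMUSG00000073888.13, chromosome 4, 41769467 to 41774247, 8 annotated starts), had 52, 71, 55 and 56 read ends, with a relative height of 11.8, 10.4, 9.13 and 8.34. Both KO relative heights lay below both WT ones, as at 27.5% of all promoters with a peak in every library. In read ends, both KO values lay above WT replicate 1. The limma difference was -0.23 (SE 0.17, 95% interval -0.59 to 0.13, adjusted p = 0.998). Ccr10 itself (ENSMUSG00000044052.3, chromosome 11, 101172997 to 101175443) had 52, 63, 63 and 63 read ends, at a peak with its summit upstream, at positions -980, -939, -872 and -922, that also lay over the promoter of Cntnap1, a neuronal adhesion gene. With shared peaks left out, an alternative chosen after seeing the data, Ccl25 and Ccr10 had no promoter peak and Cxcr4 was the only receptor left.

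The other CC ligands with a promoter peak were weaker. Ccl20, the ligand of Ccr6 (ENSMUSG00000026166.14, chromosome 1, 83116766 to 83119167), had no peak in WT replicate 1 and 32, 24 and 30 read ends in the others, with the summit 974 to 1152 bp downstream of the start. With promoters of 500 bp neither Ccl20 nor Ccl5 had a promoter peak. The scavenging receptor Ackr4 (ENSMUSG00000079355.5, chromosome 9, 104084157 to 104126933), which binds Ccl19, Ccl21 and Ccl25, had 21 and 18 read ends in WT replicate 2 and KO replicate 1. Ccl19 and the Ccl21 genes, which guide dendritic cells and T cells through Ccr7, had no promoter peak, and neither had Ccr7. The genes Ccl19, Ccl21a, Ccl21b, Ccl27a and Ccl27b have near-identical copies, and 7 further gene models of them lie on scaffolds, of which 1, a Ccl27 model, had a promoter peak, in every library. The sources used here do not say how reads were divided among copies, so their values are uncertain.

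The 9 promoters with a peak in every library had mostly low peaks. The median relative height was 7.68 over the 9 chemokine genes and 13.2 over 13310 genes, given as a description. The CpG content of the promoter, as observed over expected CpG within 1000 bp of the starts, had a median of 0.36 in the 9 genes, 0.23 in the 11 with a peak in some libraries and 0.20 in the 38 with none. For all genes the medians were 0.60, 0.32 and 0.17. Below a ratio of 0.4, 5 of 52 chemokine genes (9.62%) had a peak in every library, against 20.3% of 9520 genes. At or above 0.4 it was 4 of 6 (66.7%), against 91.7% of 12407 genes. Ccl2, at 0.14, had a CpG-poor promoter with a peak in every library, while Cxcl16, at 0.50, had a CpG-richer one with none.

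Heights were then compared between genotypes where a peak was present in all 4 libraries. Of the 9 chemokine promoters, 0 passed an adjusted p of 0.05 in limma in either direction and 0 had an unadjusted p under 0.05. Over all 13310 promoters, 2 (0.015%) were higher and 0 (0%) lower in KO, and 525 had an unadjusted p under 0.05. Differences of the 9 ranged from -0.23 at Ccl27a to 0.48 at Ccl2 on the log2 scale, with a median of -0.03 where all promoters had -0.00486. Both KO libraries lay above both WT libraries at 1 promoter (Cxcr4) and below them at 3 (Ackr3, Ccl25 and Ccl27a) after centring on the median, against 15% and 16.2% of all promoters. With scaling by the genome background the median of all promoters moved to -0.11, 0 of the 9 lay above and 4 below, Cx3cl1 among them, against 3.76% and 27.5% of all promoters. The 95% intervals were narrowest at Ccl25 (-0.25 to 0.15) and Cx3cl1 (-0.27 to 0.21). The Ccl25 peak was shared with Elavl1. At Cx3cl1 the compared summits lay at different places, at position -78 in WT replicate 2 and at 1557 to 1617 in the other libraries. At Cxcl12 the interval ran from -0.59 to 0.66. These intervals are not adjusted for the 13310 promoters, so they do not give the size of change that 2 tumors per group could detect.

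**Figure D4:**
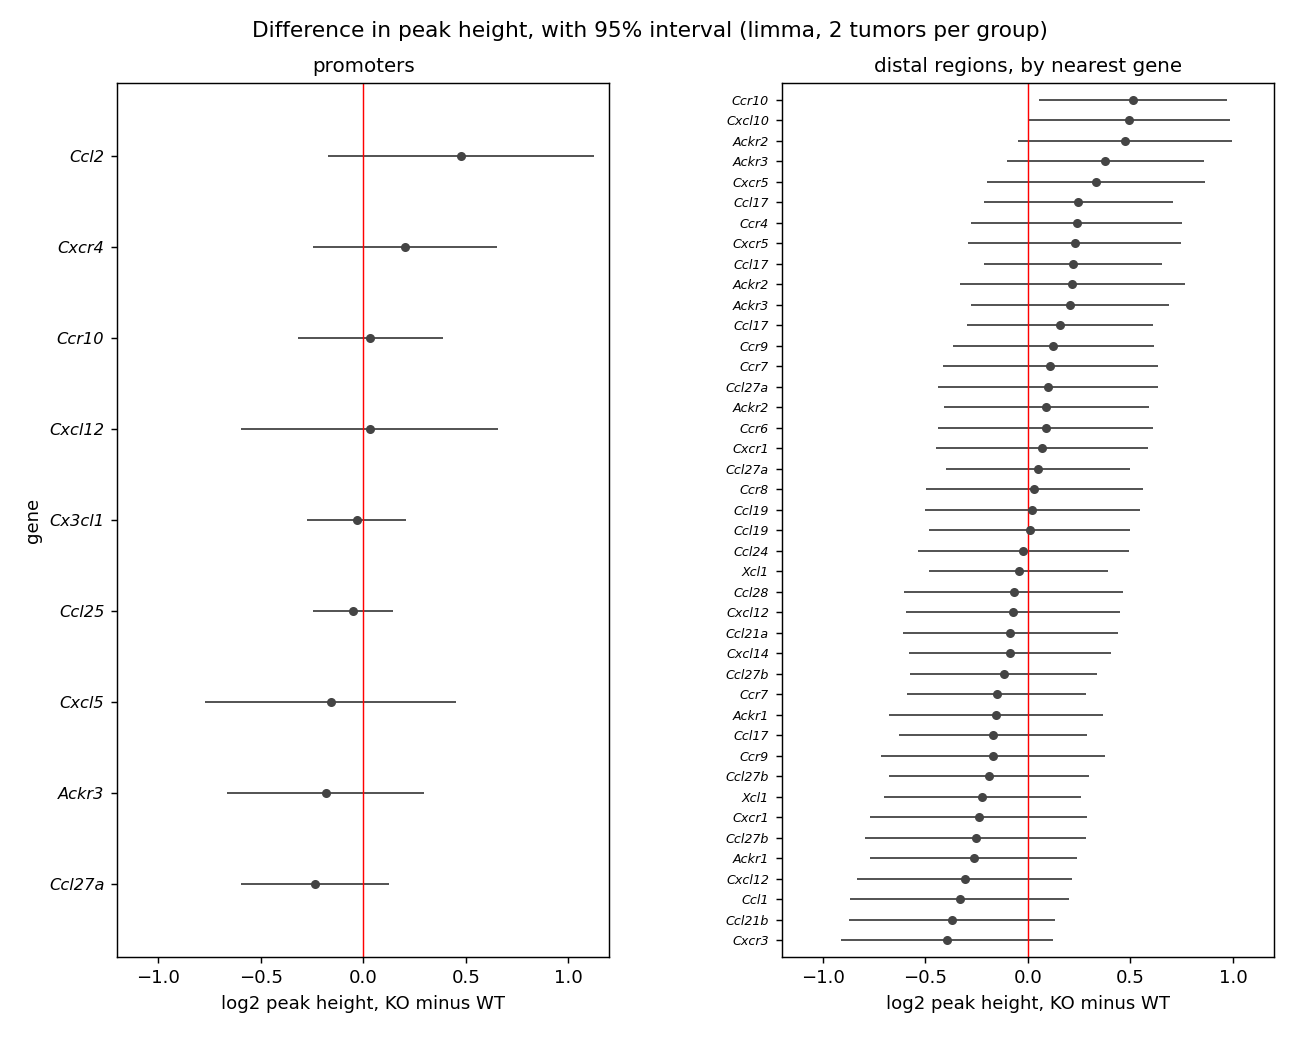
Difference in log2 peak height between KO and WT (horizontal axis, dots, with 95% intervals from limma as lines) for the 9 promoters (left) and the 42 distal regions, named by the nearest chemokine gene (right), with a peak in all 4 libraries. The interval lay above 0 at 1 region near Ccr10, with a difference of 0.51, and included 0 at every other site.

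Beyond promoters, distal regions were merged peaks that lay within 20 kb of a start and touched no promoter of any protein-coding gene. There were 110 such regions near 45 of the 58 genes, of which 62 lay between genes, 33 in introns and 15 over exons, and 10 lay near more than 1 of these genes. A peak was present in 50, 89, 72 and 75 of them. In all 4 libraries it was present in 42 regions (38.2%), against 34.6% of 30920 regions near any gene, and in 1 library alone in 33 (30%), against 31.8%. Of those 33, none came from WT replicate 1, 15 from WT replicate 2, 6 from KO replicate 1 and 12 from KO replicate 2, which is the order of the genome backgrounds. As shares of the 110 regions these were 0%, 13.6%, 5.45% and 10.9%, near the 3.17%, 15%, 3.76% and 9.78% of regions near any gene.

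**Figure D5:**
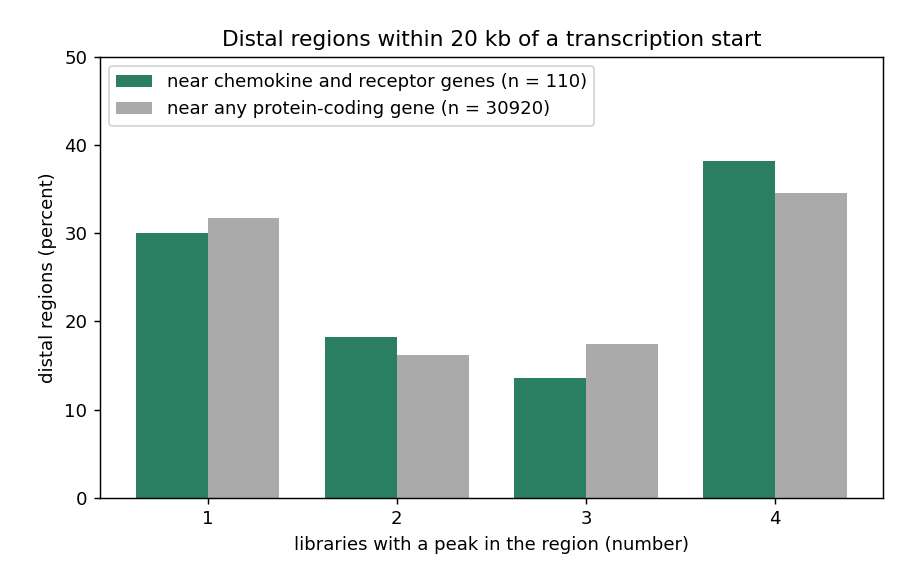
Share of distal regions (percent, vertical axis) by the number of libraries with a peak in the region (horizontal axis), for 110 regions near chemokine and receptor genes and 30920 regions near any protein-coding gene. A peak in all 4 libraries was found in 38.2% and 34.6%, and a peak in 1 library in 30% and 31.8%.

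Several genes without a promoter peak had a distal region in every library. There were 29 genes (50%) with a distal region only, against 16.3% of all protein-coding genes, and 20 of them (34.5%) had at least 1 region found in all 4 libraries, against 8.95%. These shares include the higher share of chemokine genes without a promoter peak, 65.5% against 32.8%. These 20 were the ligands Ccl1, Ccl19, Ccl21a, Ccl21b, Ccl24, Ccl26, Ccl27b, Ccl28 and Xcl1, the receptors Ccr4, Ccr6, Ccr7, Ccr8, Ccr9, Cxcr1, Cxcr3, Cxcr5 and Cxcr6, and the atypical receptors Ackr1 and Ackr2. Those with distal regions in fewer libraries included Ccl3, Ccl4, Cxcl2, Cxcl13, Cxcl17, Ccr3, Cxcr2 and Xcr1. The regions described next are the 5 with the greatest lowest relative height among the libraries, whatever the state of the promoter. The tallest lay 8.2 kb upstream of Ccl17 (chromosome 8, 94801124 to 94802252, between genes), with 48, 81, 83 and 76 read ends and a relative height of 10.9, 11.8, 13.8 and 11.3. The next lay 8.26 kb downstream of the start of Xcl1, the dendritic cell attractant of T and NK cells, in an intron of Gm20743 (chromosome 1, 164926562 to 164927270), with 40, 80, 62 and 58 read ends. An intronic region of Ccr7 (chromosome 11, 99147145 to 99148085), the receptor for homing to lymph nodes, had 41, 79, 57 and 55 read ends. It was followed by a region 1.94 kb downstream of the Ccl17 start (chromosome 8, 94812397 to 94813216) with 34, 55, 48 and 58 read ends. The fifth lay 7.48 kb upstream of the nearest Ccl27a start (chromosome 4, 41781728 to 41782684) with 37, 64, 62 and 49 read ends. In each of the 5 the fewest read ends were in WT replicate 1, the shallowest library. The lowest relative height was in KO replicate 2 at the Xcl1, Ccr7 and Ccl27a regions (8.64, 8.19 and 7.3). At both Ccl17 regions it was in WT replicate 1 (10.9 and 7.7).

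The summits of the tallest regions are shown as the strongest open sites near genes whose own promoters had few peaks or none. They are 200 bases at chr8:94801784-94801983 on the plus strand and chr1:164926785-164926984 on the minus strand (GRCm38.p6), and capitals mark CpG dinucleotides, 8 near Ccl17 and 1 near Xcl1.
Ccl17 distal region: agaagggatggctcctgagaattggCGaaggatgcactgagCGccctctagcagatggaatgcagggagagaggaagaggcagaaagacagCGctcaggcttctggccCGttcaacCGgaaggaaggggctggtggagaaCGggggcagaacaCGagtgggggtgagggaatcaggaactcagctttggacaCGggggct
Xcl1 distal region: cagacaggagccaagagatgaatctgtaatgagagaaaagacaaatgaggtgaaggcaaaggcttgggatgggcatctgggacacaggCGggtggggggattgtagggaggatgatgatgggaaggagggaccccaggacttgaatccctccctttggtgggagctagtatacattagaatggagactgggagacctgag

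Neither window held a match to the searched motifs. Over the 110 summit windows of 200 bases, the NF-kB motif was found in 8 (7.27%), against 4.17% of 30920 windows near any gene. AP-1 was found in 17 (15.5%), against 11.8%, and the ISRE in 4 (3.64%), against 2.66%. The hypoxia core was found in 8 (7.27%), against 12.3%, and the TATA box in 11 (10%), against 9.71%. These shares are descriptions and were not tested.

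Only 5 distal regions divided the libraries by genotype. Of 110 regions, 2 were WT-only and 3 KO-only, against 1.6% and 1.73% of regions near any gene. The WT-only regions lay in an intron of Ccr6, the receptor of Ccl20 (chromosome 17, 8238088 to 8238633), with 19 and 23 read ends, and 15.6 kb from Ccl27b (chromosome 4, 42670812 to 42671310), with 25 and 39 read ends. The KO-only regions lay 13.9 kb from the start of Ccl28, a mucosal ligand, over an exon of Tmem267 (chromosome 13, 119609521 to 119609888), 14.9 kb from Ccl17 (chromosome 8, 94794622 to 94795539), and 5.76 kb from Cxcr5, the receptor of Cxcl13 (chromosome 9, 44567637 to 44568234). Their heights were 27 and 28, 18 and 35, and 20 and 20 read ends in the KO libraries. None of the 5 kept its call when lists were cut at a −log10 q of 5, and none did in lists of equal length.

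In limma over 35066 regions outside promoters with a peak in all 4 libraries, 13 (0.0371%) were higher in KO and 0 (0%) lower, and 1232 had an unadjusted p under 0.05. None of the 42 near chemokine genes passed, and 1 had an unadjusted p under 0.05. That region lay 13.9 kb from the Ccr10 start over an exon of Cntnap1 (chromosome 11, 101189322 to 101190527), with 31, 51, 50 and 77 read ends and a difference of 0.51 (SE 0.23, adjusted p = 0.999). Both KO libraries lay above both WT libraries at 10 of the 42 regions and below them at 4, against 14.1% and 15.9% of all regions. With scaling by the genome background these numbers were 4 and 8, against 7.01% and 24.2% of all regions. The median difference was 0.02, where all regions had -0.00811.

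The density of peaks in the gene clusters is given as a description. From 20 kb before the first to 20 kb after the last gene, the Ccl2 cluster (Ccl2, Ccl7, Ccl11, Ccl12, Ccl8) held 4 merged regions, or 3.3 per 100 kb, and the Ccl5 cluster (Ccl5, Ccl9, Ccl6, Ccl3, Ccl4) held 6, or 3.35. The Cxcl1 cluster held 6, or 3.22, and the receptor cluster around Ccr2 held 4, or 1.77. The genome held 4.64 regions per 100 kb. The Cxcl9 and Cxcl10 pair stood at 7.4 and the Cx3cl1 cluster at 13.2, with 14 regions of which 5 were found in every library. In the Cx3cl1 cluster the median local background was 1.91 to 2.24 times the genome background in the 4 libraries, where the Ccl2 cluster had 1 to 1.43.

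Genes that act with or downstream of the receptors were examined next. Of 37 genes of chemokine receptor signalling (G protein subunits, arrestins, receptor kinases, RGS proteins, kinases, Rac regulators and others), 27 (73%) had a promoter peak in all 4 libraries, where all genes had 60.6%. The widely used genes Gnai2, an inhibitory G protein subunit, and Arrb2, an arrestin, had 86, 100, 99 and 110 and 115, 150, 130 and 145 read ends. Another 7 of the 37, Dock2, Dpp4, Plcb2, Rac2, Rgs1, Rgs18 and Vav1, had no promoter peak in any library, where 32.8% of all genes had none. In limma 0 of the 27 passed in either direction, and 1, Gnai1, had an unadjusted p under 0.05 (difference -0.31, SE 0.13, adjusted p = 0.998). Their median difference was -0.00527, where all promoters had -0.00486.

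The genes with neither a promoter peak nor a distal region in any library were Ccl6, Ccl8, Ccl9, Ccl12, Cxcl9, Cxcl15, Cxcl16, Ccr1 and Ccr2, 9 of the 58 (15.5%), near the 16.5% of all protein-coding genes. They include the receptor of Ccl2, whereas Ccl2 itself had a promoter peak in every library. With the starts of all annotated transcripts, a setting chosen after seeing the data, 2 more promoters, those of Ackr2 and Ccl28, had a peak in every library.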

How the data were processed

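ATAC-seq peak lists of 2 WT and 2 KO tumors were analysed, 1 list per library, with groups and replicate numbers from the sample titles. MACS2, HOMER and mm10 appear in the processing notes of the submitters, while the study's methods describe Trimmomatic, Bowtie2, removal of mitochondrial and duplicate reads, and Genrich. A shift of reads for the transposase was not given in the sources used here. For each peak the authors deposited a score, a fold (ratio) over local background, and −log10 values of the p-value and the q-value. Heights were recovered by solving the fold, a ratio of height to background with 1 added to each, together with the Poisson p-value. They were whole within 0.001 on the −log10 p scale except at 2 of 331481 peaks. The genome background was the lowest background in a library. The lists hold no read counts, so no count model was used.

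Gene models were GENCODE M21 (41538 starts), and all peaks lay within the chromosome lengths of GRCm38.p6. Peaks were merged where they shared 1 bp. limma 3.58.1 (R 4.3.3) was run on log2 heights centred on the library median, with a mean-variance trend and Benjamini-Hochberg adjustment over all promoters or regions, without a replicate block. Other steps used Python 3.11.15. Functions were tested on simulated data. Promoters were from RefSeq (GRCm38.p6). Named were all genes with a promoter peak, all WT-only or KO-only regions, those past an adjusted p of 0.05, the 5 tallest distal regions by lowest relative height, and genes with neither a promoter peak nor a distal region. Cxcl1, Cxcl2, Cxcl3, Cxcl10, Cxcr4 and the 2 tallest regions were chosen for their sequences after results were seen. The members, lists and motifs were chosen with earlier results of these data known. Tumors that share a replicate number share nothing else in the labels.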

Additional observations from a re-analysis of the deposited data

How the results depend on the processing

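The main limit is depth: a weak peak can be missed in a shallow library, and heights exist only where a peak was called. No chemokine promoter or distal region passed the limma test under any of the settings that were run. Of the 58 genes, 9 promoters had a peak in all 4 libraries, and 14 did with promoters of 2500 bp, where the share difference was 0. The number was 8 when lists were cut at a −log10 q of 5, in lists of equal length, and with promoters of 500 bp. WT-only promoters numbered 1 when lists were cut at a −log10 q of 5, in lists of equal length, and at promoters of 2500 bp, and KO-only promoters 1 under the first 2 of these. With 1 library left out, WT-only and KO-only promoters ranged from 0 to 2 each and the share difference from -1.72 to 6.9 percentage points. Shares of WT-only and KO-only promoters over all genes were computed for the main setting only, so these counts have none beside them.

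Distal regions with a peak in all 4 libraries numbered 25 of 64 within 10 kb, 93 of 242 within 50 kb, and 25 when coverage of 50% of a region was required. WT-only and KO-only regions numbered 0 and 0 in lists cut at a −log10 q of 5, 1 and 1 in lists of equal length, 1 and 1 within 10 kb, and 4 and 6 within 50 kb. KO-only regions numbered 1 under the coverage rule. With 1 library left out, WT-only and KO-only regions ranged from 3 to 17 and from 3 to 16, since 1 library then decides for its group. Shares over all regions near any gene were likewise computed for the main setting only.

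Over all promoters in limma, higher and lower calls numbered 0 and 1 on the fold over local background and 0 without the trend. Lower calls numbered 7 with scaling by the genome background and 2 above the median height. With 1 library left out, higher calls ranged from 2 to 163 and lower calls from 0 to 66, the highest numbers without KO replicate 1. Over all distal regions they numbered 0 and 3 on the fold, and ranged from 7 to 101 and from 0 to 17 with 1 library left out. With the replicate number as a block, limma called 6 promoters higher and 6 lower and 11 distal regions higher, none of them a chemokine site, and the block changed no call of a chemokine gene. Deviations of samples with the same number correlated at -0.20 over promoters and -0.29 over distal regions, so a crossed pairing was added after seeing the data, with 23 and 12 promoter calls and 62 and 14 distal calls.

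Of 83 values of chemokine promoter differences under these settings, 73 kept their sign. The sign turned at Cxcr4 (-0.08) and Cx3cl1 (0.06) on the fold, and at Cxcl12 (-0.07) and Ccr10 (-0.07) with scaling by the genome background. It also turned without WT replicate 2 at Cxcl12 (-0.09), Cx3cl1 (0.01) and Ccr10 (-0.04), without KO replicate 1 at Ccr10 (-0.07), and without KO replicate 2 at Cxcl12 (-0.14) and Cx3cl1 (0.05). With 1 library left out the values ranged from -0.14 to 0.21 at Cxcl12, from -0.11 to 0.05 at Cx3cl1 and from -0.07 to 0.14 at Ccr10. They ranged from 0.11 to 0.30 at Cxcr4, from -0.25 to -0.11 at Ackr3, from -0.33 to -0.14 at Ccl27a and from -0.32 to -0.01 at Cxcl5, with the smallest sizes without KO replicate 2 and, at Cxcl5, without WT replicate 1. A group left with 1 library was assumed to vary like the other. The cause was not tested.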
